A study of Mus musculus with 12 samples.

Results

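The 10 genes described here encode the energy-sensing kinase AMPK, the kinase that activates it, and the growth kinase complex mTORC1 with the complex that restrains it. They were chosen by gene symbol: Prkaa1, Prkaa2, Prkab1, Prkab2, Prkag1, Stk11, Mtor, Rptor, Tsc1 and Tsc2, which are 10 of the 45777 genes in the deposited table. RNA was measured in CD4+ T cells from the spleens of wild-type C57BL/6 mice, given as 7 weeks old in the sample labels, while the study's methods give a somewhat older range for its mice. All cells were stimulated with anti-CD3 at 0.5 µg/ml for 3 days, and the study's methods also list soluble anti-CD28 for T cell activation. The Control group received the stimulus alone. The FK506 group also received FK506 (tacrolimus, a calcineurin inhibitor that blocks NFAT), the Metformin group received metformin (an antidiabetic drug that limits mitochondrial respiration), and the Metformin+FK506 group received both, with 3 libraries in each of the 4 groups. CD4+ cells were taken with antibody-coated magnetic beads, so other spleen cells that adhere to the beads can be carried along. The labels do not say whether the replicates were separate cultures or animals, and p-values measure the spread between these libraries, which may be technical.

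AMPK is a trimer of a catalytic alpha subunit, a scaffold beta subunit and a gamma subunit that binds AMP, ADP and ATP. It is switched on when AMP rises and when its alpha subunit is phosphorylated by Stk11 (LKB1) or, after a calcium signal, by Camkk2. mTORC1 is built on the kinase Mtor and the scaffold Rptor (raptor), which recruits substrates. It drives protein synthesis and growth in activated T cells. AMPK restrains mTORC1 by phosphorylating Tsc2 and Rptor, and the Tsc1-Tsc2 complex switches off Rheb, the small GTPase that activates mTORC1. These controls act largely on protein phosphorylation and nucleotide binding, which RNA levels do not measure.

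Levels are given as FPKM (fragments per kilobase of transcript, set relative to the total of the library) divided by the TMM factor of the library, a scaling factor that makes the typical gene equal between libraries. This value is called scaled FPKM. Changes are log2 fold changes with their standard error (SE) from edgeR's quasi-likelihood test on read counts, with p-values adjusted by Benjamini-Hochberg over the 15197 genes tested, and a gene was called when its adjusted p was under 0.05. Prkaa2 did not pass the filter on low values, so 9 of the 10 genes were tested. Total counts ran from 43402632 to 64290105 per library. The scaling matters here, because FPKM summed to between 477754 and 503231 in the libraries without FK506 and to between 393339 and 414061 in those with it.

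The libraries also differed in the RNA of marker genes of other cell types. The 10 myeloid markers (such as Lyz2, C1qa and Csf1r) summed to between 4.40 and 4.55 FPKM in Control, 8.67 to 10.0 in Metformin, 1362 to 1411 in FK506 and 925 to 1050 in Metformin+FK506. From FK506 to Metformin+FK506 the mean FPKM of Lyz2 went from 981 to 539, and it was the one myeloid marker called lower, while Cd68, C1qb and C1qc were called higher and the median log2 change of the 10 was 0.13. C1qa, C1qc, Adgre1 and Mmp12 were listed at 0 in every Control library. The 10 B cell markers summed to 51.3 to 53.3, 67.6 to 75.5, 838 to 887 and 410.3 to 441 FPKM in the same order of groups. All 10 genes of both lists were called higher in FK506 than in Control. In Control, 1 of the 10 myeloid and 8 of the 10 B cell markers had a mean of 0.5 FPKM or more. Metformin had the same numbers. The other markers passed the filter on low values through the groups with FK506, so their calls largely follow from it. The 12 T cell markers were present in every library and summed to between 2233 and 2602 FPKM before scaling. In FK506 against Control 8 of them were called lower and 4 higher, with a median log2 change of −0.41, while with total counts 7 were lower and 4 higher (median −0.18) and with TPM 4 were lower and 5 higher (median 0.05). The 2 CD8 T cell markers summed to 9.01 to 9.52 FPKM in Control and 12.9 to 13.2 in Metformin. Their sums were 6.84 to 7.35 in FK506 and 6.93 to 8.64 in Metformin+FK506. Against Control both were called higher in Metformin, and 1 was called lower and none higher in FK506. In bulk RNA, fewer cells of a type and less RNA per cell cannot be told apart, and the part of these other cells in each FK506 result described next was not tested.

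**Figure D1:**
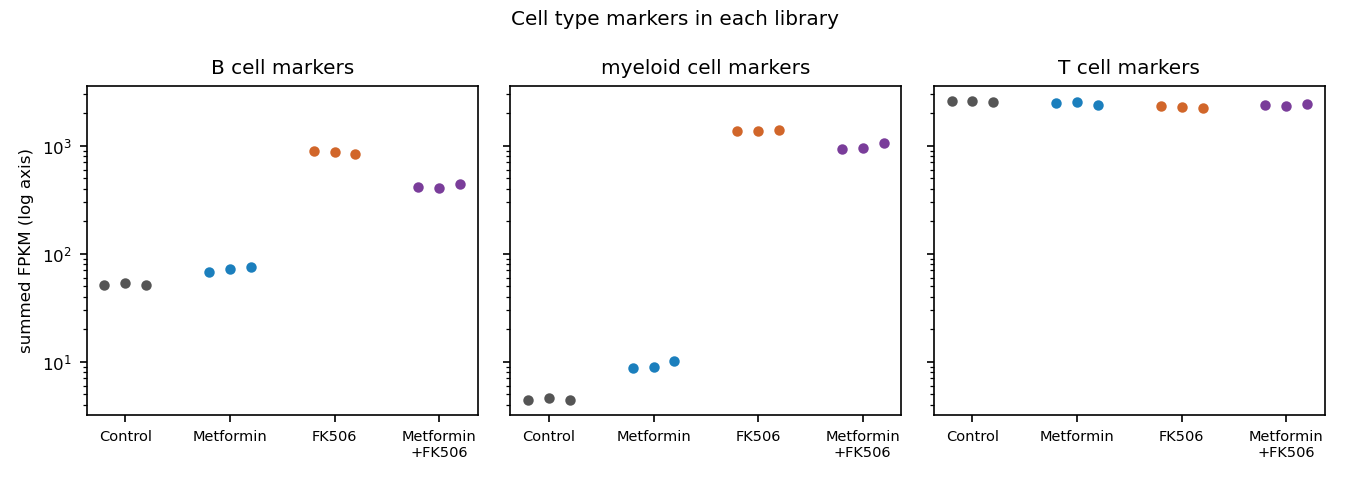
Summed FPKM (log axis) of the B cell, myeloid cell and T cell marker lists in each of the 3 libraries per group. The FK506 and Metformin+FK506 libraries sit above the others for the B cell and myeloid lists, and the unscaled T cell sums lie between 2233 and 2346 in FK506 and between 2543 and 2602 in Control.

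The promoters of Rptor, Prkab2 and Prkaa1 are shown because these are the 3 genes of the set whose metformin response differed with and without FK506, as described further on. Each stretch holds the 120 bases before a transcript start in RefSeq on build GRCm38.p6 (for Prkab2 that start lies 1 base after the first base of the gene), read on the strand of the gene, and all 3 genes lie on the plus strand. Capitals mark GGGCGG (GC box) or its reverse complement, where 2 matches may touch or overlap.
Rptor, chr11:119602785-119602904: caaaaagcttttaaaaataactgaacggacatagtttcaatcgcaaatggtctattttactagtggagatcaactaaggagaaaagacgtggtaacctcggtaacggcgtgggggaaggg
Prkab2, chr3:97658092-97658211: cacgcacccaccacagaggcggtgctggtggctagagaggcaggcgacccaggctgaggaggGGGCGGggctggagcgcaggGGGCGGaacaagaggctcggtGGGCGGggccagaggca
Prkaa1, chr15:5143741-5143860: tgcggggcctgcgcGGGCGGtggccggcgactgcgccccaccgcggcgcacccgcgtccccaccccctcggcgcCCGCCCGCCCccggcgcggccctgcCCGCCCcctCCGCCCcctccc

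The 3 sequences differ in base composition. Over the 250 bases before the start, G and C made up 37.6% in Rptor, the lowest of the 10 genes, 69.2% in Prkab2 and 85.2% in Prkaa1, the highest, against a median of 52.4% over 32851 promoters. In those 250 bases on both strands, GGGCGG was found in 5 of the 10 genes (Prkaa1, Prkaa2, Prkab2, Prkag1 and Mtor) and in 32.7% of all promoters. CCAAT was found in 3 (Mtor, Stk11 and Prkag1) and in 33.8% of all. CCGGAAG, a binding sequence of ETS factors, was found in 4 (Mtor, Prkab1, Prkag1 and Tsc2) and in 6.91% of all. GGAAA, the core bound by NFAT, was found in Prkab1 alone of the 10 and in 55.6% of all promoters. CACGTG and TGACGTCA were in none of the 10 and in 6.02% and 1.55% of all. A match is a description of the letters and not a site.

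The order of the levels was similar in the groups. In Control, Stk11 had the highest scaled FPKM (35.3 ± 0.97, SD, n = 3), followed by Prkag1 (32.4 ± 1.04) and Prkab1 (20.5 ± 1.11). The next were Tsc2 (10.2 ± 0.28), Mtor (8.77 ± 0.058), Rptor (7.88 ± 0.25), Prkaa1 (7.66 ± 0.23), Tsc1 (6.88 ± 0.15) and Prkab2 (6.32 ± 0.17). Among neighbours in this order, Rptor and Prkaa1 overlapped and the others did not. With both drugs Rptor came next after Prkab1 at 14.8 ± 0.64, above Tsc2 at 13.1 ± 1.10. In that group the libraries of Tsc2 and Tsc1 overlapped, as did those of Mtor and Prkaa1.

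**Figure D2:**
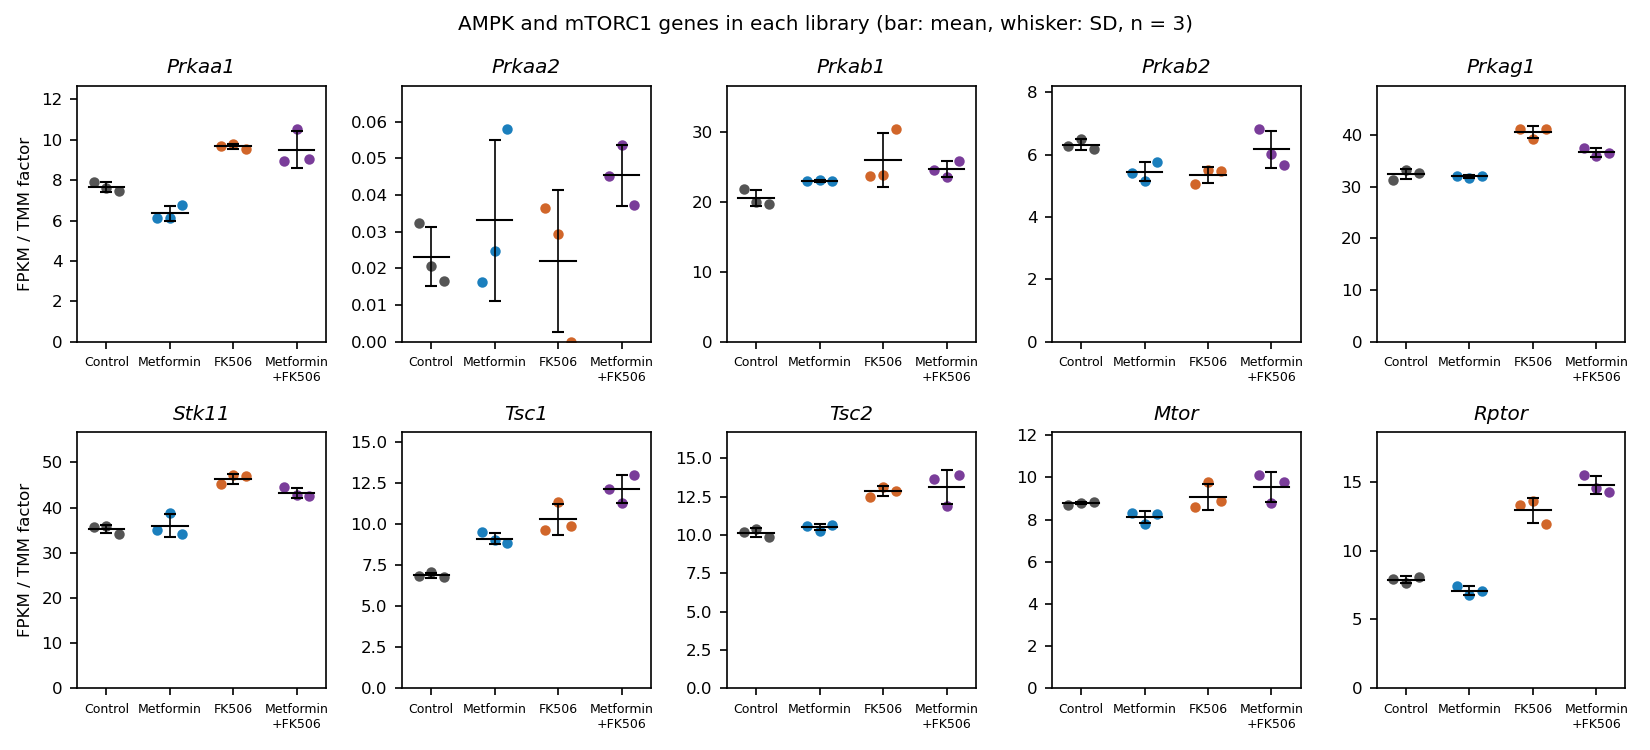
Scaled FPKM (FPKM divided by the TMM factor) of the 10 genes in each library, with the mean (bar) and SD (whisker) of 3 libraries per group, each panel on its own axis from 0. Among the 9 tested genes the highest group mean over the lowest is widest for Rptor (2.08) and Tsc1 (1.76), and Prkaa2 stays at or below 0.0581 in every library.

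FK506 against Control asks how the pathway genes stood when calcineurin was blocked during stimulation. Of the 9 genes tested, 7 were called higher (Prkaa1, Prkab1, Prkag1, Stk11, Tsc1, Tsc2 and Rptor) and Prkab2 was called lower. Over all genes tested, 80.9% were called, 41.3% higher and 39.6% lower, so 8 of 9 called is near the share of all genes. The median log2 change of the 9 was 0.35 against 0.02 over all genes, while the median size of change was 0.35 against 0.70. The sizes were thus smaller than those of a typical gene, and none of the 9 reached a log2 change of 1. With total counts in place of TMM 8 were higher and 0 lower, and with TPM 9 were higher and 0 lower. These scalings moved the median of all genes to 0.25 and 0.42, and the higher share of all called genes from 51.1% to 62.1% and 71.2%.

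Metformin against Control asks the same of metformin alone. Tsc1 was called higher, and Prkaa1, Prkab2 and Rptor were called lower, which is 4 of 9 against 56.0% of all genes (28.6% higher, 27.4% lower). The median log2 change of the 9 was −0.02 against 0.01 over all genes. The split was 2 higher and 2 lower with upper quartile or total count scaling, 1 and 1 on log2(FPKM + 1), and 1 and 2 on TPM.

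Metformin+FK506 against Control shares its 3 Control libraries with both comparisons above. In it 8 of 9 were called higher and none lower by edgeR, where Prkab2 was the gene not called, against 81.7% of all genes called (42.1% higher, 39.6% lower). At an unadjusted p under 0.05 none was lower either, and DESeq2 also called 8 higher and 0 lower. The median was 0.34 against 0.03. Adding metformin to FK506 (Metformin+FK506 against FK506) gave 3 called higher (Prkab2, Rptor and Tsc1) and 1 lower (Prkag1), against 30.7% of all genes called (15.6% higher, 15.0% lower), with medians of 0.01 and 0.00. Adding FK506 to metformin (Metformin+FK506 against Metformin) gave 8 called higher and none lower by edgeR, at an unadjusted p under 0.05 and by DESeq2, where Prkab1 was not called, against 78.2% of all genes (40.3% higher, 37.9% lower). The medians were 0.36 and 0.02.

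**Figure D3:**
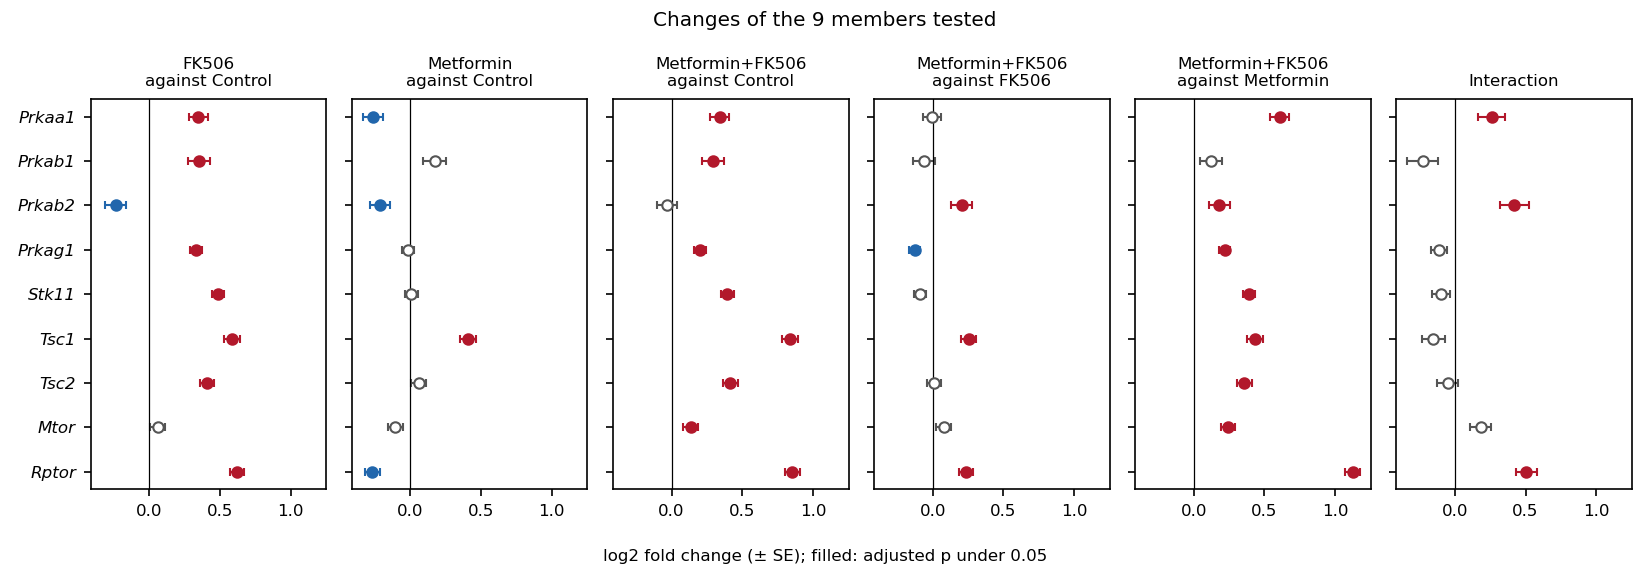
Log2 fold change ± SE of the 9 tested genes in 5 comparisons and the interaction, filled where the adjusted p was under 0.05 (red higher, blue lower). In the FK506 panel 8 genes lie to the right of 0, 7 of them called higher, and Prkab2 lies to the left, and Rptor passes 1 only in Metformin+FK506 against Metformin.

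Gene positions are from RefSeq on GRCm38.p6. Prkaa1 (chr15:5143861-5181899) encodes the catalytic subunit alpha1 and Prkaa2 (chr4:105029649-105109898) the subunit alpha2. Prkaa1 was at 7.91, 7.60 and 7.46 scaled FPKM in Control, 9.67, 9.79 and 9.56 in FK506, 6.14, 6.14 and 6.79 in Metformin and 8.95, 10.5 and 9.03 in Metformin+FK506. Both groups with FK506 lay above both groups without it, the Metformin libraries were the lowest, and FK506 and Metformin+FK506 overlapped. Its log2 change was 0.35 ± 0.067 in FK506 against Control (adjusted p = 0.000184) and −0.27 ± 0.069 in Metformin against Control (adjusted p = 0.00362). It rose by 0.61 ± 0.068 when FK506 was added to metformin (adjusted p = 4.66e-07). Prkaa2 had 0 to 34 reads per library and 0 to 0.0581 scaled FPKM. FK506 replicate 3 had a count of 0, which allows up to 3 counts. Alpha2 made up 0.300% ± 0.096 of the summed alpha FPKM in Control, 0.505% ± 0.30 in Metformin, 0.225% ± 0.20 in FK506 and 0.473% ± 0.054 in Metformin+FK506. Nearly all alpha subunit RNA in these cells was thus Prkaa1 in every group.

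Prkab1 (chr5:116013586-116024503) and Prkab2 (chr3:97658211-97673812) encode the beta subunits, which hold the trimer together and bind glycogen. Prkab1 was at 21.8, 20.0 and 19.7 scaled FPKM in Control, 23.7, 23.9 and 30.4 in FK506, 22.9, 23.1 and 22.9 in Metformin and 24.5, 23.6 and 25.9 in Metformin+FK506. FK506 replicate 3 stood above the other libraries. The log2 change in FK506 was 0.35 ± 0.078 (adjusted p = 0.00061), and without that library it was 0.23 (adjusted p = 0.00104). In Metformin it was 0.17 ± 0.079, which missed the threshold (adjusted p = 0.0789) and passed it without FK506 replicate 3 (0.16, adjusted p = 0.0103). Prkab2 was at 6.26, 6.51 and 6.18 in Control, 5.05, 5.51 and 5.48 in FK506, 5.41, 5.16 and 5.77 in Metformin and 6.83, 6.00 and 5.68 in Metformin+FK506. Each drug alone lay below Control without overlap, and the combination overlapped Control and lay above the FK506 libraries.

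Prkab2 fell by 0.24 ± 0.072 on the log2 scale in FK506 (adjusted p = 0.00651) and by 0.21 ± 0.073 in Metformin (adjusted p = 0.0198), and its change with both drugs was −0.03 ± 0.072 (adjusted p = 0.676). The direction in FK506 depended on the scaling: it was −0.01 with total counts (adjusted p = 0.86) and 0.20 with TPM (adjusted p = 0.0367). The Metformin call was lost when Control replicate 2 (−0.19), Metformin replicate 1 (−0.20) or Metformin replicate 2 (−0.18) was left out. The rise from FK506 to Metformin+FK506 was 0.20 ± 0.072 (adjusted p = 0.0418), and it missed the threshold in 17 of 25 alternatives. Without Metformin+FK506 replicate 1 it was 0.11 (adjusted p = 0.244), and without that library the rise from Metformin, 0.18 ± 0.072 (adjusted p = 0.0323), became 0.10 (adjusted p = 0.187). Leaving out Metformin replicate 1 (0.17) or replicate 2 (0.14) also ended that last call.

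Prkag1 (chr15:98812797-98831508) encodes gamma1, the nucleotide-binding subunit. It was at 31.3, 33.3 and 32.7 scaled FPKM in Control, 41.2, 39.2 and 41.2 in FK506, 32.0, 31.7 and 32.2 in Metformin and 37.6, 35.9 and 36.5 in Metformin+FK506. Metformin lay within the range of Control, FK506 was the highest, and the combination lay between them without overlap. The log2 change was 0.33 ± 0.040 in FK506 (adjusted p = 1.11e-06) and −0.02 ± 0.041 in Metformin (adjusted p = 0.757). From FK506 to Metformin+FK506 it fell by 0.13 ± 0.040 (adjusted p = 0.0223), which missed the threshold without FK506 replicate 1 (−0.12, adjusted p = 0.0611) or replicate 3 (−0.12, adjusted p = 0.0568). In the GENCODE annotation of this build 43.7% of the exon bases of Prkag1 also lie in exons of the antisense gene B130046B21Rik, and without strand-specific counting reads of the 2 genes cannot be told apart.

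Stk11 (chr10:80115767-80130679) encodes the upstream kinase LKB1. It was at 35.8, 35.9 and 34.1 scaled FPKM in Control, 45.1, 47.2 and 46.9 in FK506, 35.0, 38.9 and 34.1 in Metformin and 44.6, 42.7 and 42.7 in Metformin+FK506. The 2 groups with FK506 lay above the 2 without it, and Metformin overlapped Control. The log2 change in FK506 was 0.49 ± 0.0445 (adjusted p = 3.18e-08) and in Metformin 0.01 ± 0.045 (adjusted p = 0.935). From FK506 to the combination the change was −0.09 ± 0.044 (adjusted p = 0.132). The exons of Stk11 share 5.07% of their bases with the opposite-strand gene Cbarp, and those of Tsc2 share 7.20% with Pkd1.

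Tsc1 (hamartin, chr2:28640993-28691172) stabilises Tsc2 (tuberin, chr17:24595816-24632676), which carries the GTPase-activating domain that acts on Rheb. Tsc1 was at 6.81, 7.05 and 6.77 scaled FPKM in Control, 9.64, 11.3 and 9.84 in FK506, 9.48, 9.01 and 8.83 in Metformin and 12.1, 11.3 and 13.0 in Metformin+FK506. Control was the lowest, each drug alone lay above it, and the combination was the highest by its mean with 1 library within the range of FK506. The log2 change was 0.59 ± 0.056 in FK506 (adjusted p = 6.03e-08), 0.41 ± 0.057 in Metformin (adjusted p = 1.38e-05) and 0.84 ± 0.056 with both (adjusted p = 5.66e-10). Adding metformin to FK506 raised it by 0.25 ± 0.055 (adjusted p = 0.00223). Tsc1 was the only member called in the same direction in all 5 comparisons.

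Tsc2 was at 10.2, 10.4 and 9.85 scaled FPKM in Control, 12.5, 13.1 and 12.9 in FK506, 10.6, 10.3 and 10.6 in Metformin and 13.6, 11.9 and 13.9 in Metformin+FK506. The groups with FK506 lay above those without it, and Metformin overlapped Control. The log2 change was 0.41 ± 0.051 in FK506 (adjusted p = 1.64e-06), 0.06 ± 0.052 in Metformin (adjusted p = 0.362) and 0.01 ± 0.051 from FK506 to the combination (adjusted p = 0.935).

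Mtor (chr4:148448582-148557685), the kinase of both mTOR complexes, was at 8.71, 8.79 and 8.82 scaled FPKM in Control, 8.61, 9.78 and 8.87 in FK506, 8.33, 7.80 and 8.27 in Metformin and 10.1, 8.77 and 9.76 in Metformin+FK506. FK506 overlapped Control, Metformin lay below Control, and the combination overlapped FK506 and, by 1 library, Control. The log2 change was 0.06 ± 0.052 in FK506 (adjusted p = 0.313) and −0.11 ± 0.053 in Metformin (adjusted p = 0.101). With total counts the FK506 change was 0.28 (adjusted p = 0.000122) and with TPM 0.49 (adjusted p = 2.38e-05). The change with both drugs, 0.14 ± 0.052 (adjusted p = 0.025), was not past the threshold without Control replicate 1 (0.13), Control replicate 2 (0.13), Metformin+FK506 replicate 3 (0.13) or Metformin+FK506 replicate 1 (0.09, adjusted p = 0.15). From Metformin to the combination it rose by 0.24 ± 0.053 (adjusted p = 0.000525).

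Rptor (chr11:119602905-119899591) had the largest changes of the 9 tested genes in every comparison with FK506 against a group without it. It was at 7.92, 7.62 and 8.12 scaled FPKM in Control, 13.3, 13.6 and 11.9 in FK506, 7.46, 6.74 and 7.10 in Metformin and 15.5, 14.6 and 14.2 in Metformin+FK506. No pair of groups overlapped, with Metformin the lowest and the combination the highest. The log2 change was 0.62 ± 0.052 in FK506 (1.54-fold, adjusted p = 1.14e-08), 0.86 ± 0.052 with both drugs (1.81-fold, adjusted p = 1.67e-10) and 1.12 ± 0.053 from Metformin to the combination (2.18-fold, adjusted p = 6.74e-12). Adding metformin to FK506 raised it by 0.24 ± 0.051 (adjusted p = 0.00225). In Metformin alone it fell by 0.27 ± 0.0535 on read counts (adjusted p = 0.000446), while the scaled FPKM gave −0.15. The 5 limma fits on FPKM or TPM gave −0.10 to −0.16 and missed the threshold (adjusted p from 0.0514 to 0.162).

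The interaction asks whether the change from adding metformin differed with and without FK506, as the log2 change from FK506 to Metformin+FK506 minus that from Control to Metformin. Of the 9 genes 3 were called, all positive (Rptor, Prkab2 and Prkaa1), against 46.5% of all genes called (22.5% positive, 24.0% negative). By upper quartile or total count scaling 2 were positive and 2 negative. The value was 0.50 ± 0.074 for Rptor (adjusted p = 3.53e-05) and 0.42 ± 0.102 for Prkab2 (adjusted p = 0.00315). Both kept their call in all 24 alternatives, where Rptor ranged from 0.28 to 0.56 and Prkab2 from 0.32 to 0.47. For Prkaa1 it was 0.26 ± 0.096 (adjusted p = 0.0351), and the call was lost in 16 of 24 alternatives, 8 of them with a library left out. The libraries whose omission ended it were Control replicates 1 (0.24) and 2 (0.27), FK506 replicates 1 (0.26), 2 (0.27) and 3 (0.26), Metformin replicates 1 (0.23) and 2 (0.24) and Metformin+FK506 replicate 2 (0.17). The sum of B cell markers fell from 838 to 887 FPKM in FK506 to 410.3 to 441 in Metformin+FK506 and was higher in Metformin than in Control. The myeloid sum moved the same way, from 1362 to 1411 FPKM in FK506 to 925 to 1050 in Metformin+FK506, and from 4.40 to 4.55 in Control to 8.67 to 10.0 in Metformin. The myeloid list as a whole did not follow its sum. From FK506 to Metformin+FK506, Lyz2 alone of the 10 was called lower and 3 were called higher. From Control to Metformin 2 were called higher and 1 lower, and in each of these groups 1 marker had a mean of 0.5 FPKM or more. The part of B cell or myeloid RNA in the 3 interaction values was not tested.

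Ratios between partner subunits do not depend on the scaling of the library, since both genes are read in the same one. The exception is Prkaa2 over Prkaa1, where a constant was added. They were compared between the 6 libraries with FK506 and the 6 without it by a two-sided exact permutation test within metformin strata, with p-values adjusted over the 4 ratios. The smallest p the 400 assignments allow is 0.005. The ratio of Rptor to Rictor (the scaffold of mTORC2) was 0.711 ± 0.022 in Control, 0.802 ± 0.036 in Metformin, 0.916 ± 0.073 in FK506 and 1.09 ± 0.067 in Metformin+FK506. It was higher with FK506 by 0.40 on the log2 scale (exact p = 0.005, adjusted 0.01), and all 6 libraries with FK506 lay above all 6 without. The ratio of Tsc2 to Tsc1 was 1.48 ± 0.021 in Control, 1.15 ± 0.044 in Metformin, 1.25 ± 0.084 in FK506 and 1.08 ± 0.036 in Metformin+FK506. It was lower with FK506 by a log2 difference of −0.16 (exact p = 0.01, adjusted 0.0133), and the Metformin libraries overlapped those of FK506 alone. When labels were permuted within replicate numbers as well, this difference missed the threshold.

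The ratio of Prkab2 to Prkab1 was 0.309 ± 0.019 in Control, 0.237 ± 0.014 in Metformin, 0.208 ± 0.026 in FK506 and 0.251 ± 0.030 in Metformin+FK506. Control lay above every other library. The difference with FK506 was −0.25 on the log2 scale and did not pass the threshold (exact p = 0.09, adjusted 0.09): it was −0.58 without metformin and 0.08 with it. As a share, Prkab2 made up 23.6% ± 1.13 of beta subunit FPKM in Control and 17.2% ± 1.78 in FK506. For Prkaa2 over Prkaa1, 0.1 was added to both values because 1 library is listed at 0. The added value exceeds every Prkaa2 FPKM, so the log2 difference of −0.55 (exact p = 0.005, adjusted 0.01) largely repeats the rise of Prkaa1. That rise is in unscaled FPKM, so this ratio depends on the scaling of the library.

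**Figure D4:**
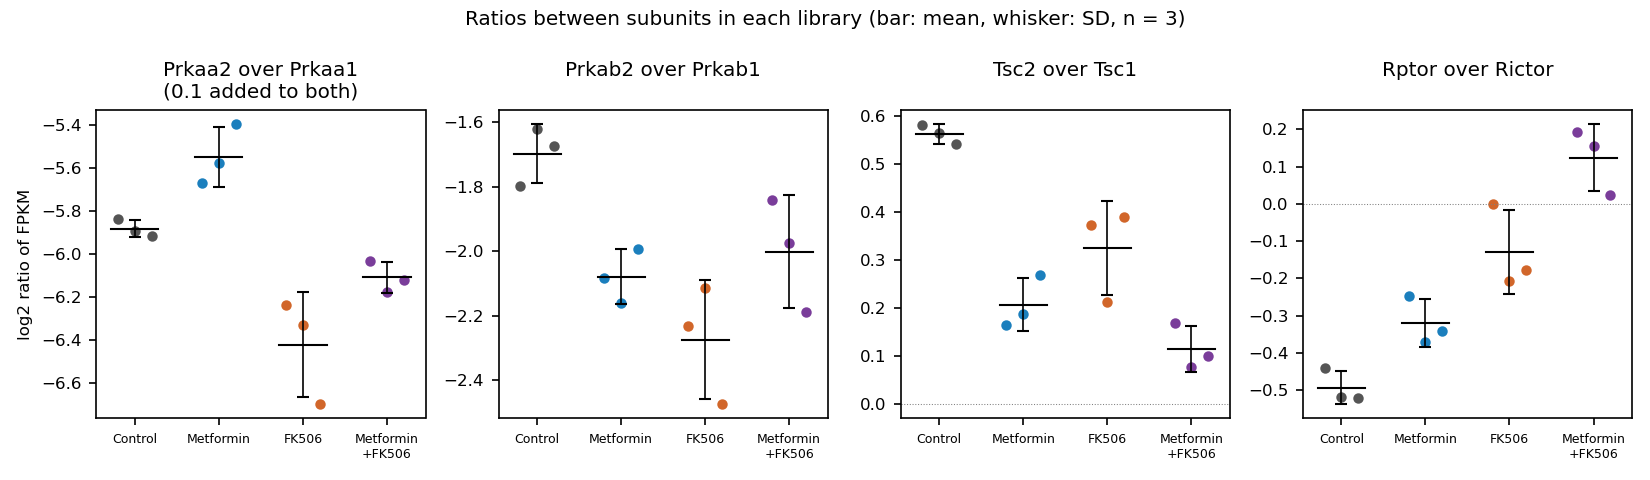
Log2 ratio of FPKM between subunits in each library, with the mean (bar) and SD (whisker) of 3 libraries per group, each panel on its own axis. Rptor over Rictor separates the 6 libraries with FK506 from the 6 without, whereas Prkab2 over Prkab1 is highest in Control and overlaps among the other groups.

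The wider pathway was described by 8 lists holding 92 other genes, of which 86 were tested. In FK506 against Control 38 were called higher and 35 lower, or 84.9%, against 80.9% of all genes, with a median log2 change of 0.02. With total counts the split was 47 and 20, and with TPM 63 and 11, where 62.1% and 71.2% of all called genes were higher. The TPM splits in FK506 of the lists below stand beside that same 71.2%. In Metformin against Control 41 were higher and 17 lower, or 67.4% against 56.0%, with a median of 0.10 against 0.01. In Metformin+FK506 against FK506 13 were higher and 11 lower, or 27.9% against 30.7%, and with total counts 10 and 12. In the interaction 20 were positive and 37 negative, or 66.3% against 46.5%, with a median of −0.12 against −0.02 over all genes.

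Among the other AMPK subunits and upstream kinases, 3 of 8 tested rose and 2 fell in FK506, or 62.5% called against 80.9% of all genes (6 rose with TPM), and 5 rose in Metformin, where 28.6% of all genes rose. Strada, the pseudokinase that activates Stk11, rose with FK506 by 0.44 ± 0.051 (adjusted p = 5.72e-07), from 12.9 to 17.8 scaled FPKM. Cab39, the scaffold of the same complex, rose in Metformin by 0.32 ± 0.048 (adjusted p = 2.84e-05), from 54.4 to 67.8. Camkk2 fell in FK506 by 0.30 ± 0.064 (adjusted p = 0.000448), from 5.37 to 4.45 scaled FPKM, but its change was −0.08 with total counts (adjusted p = 0.283) and 0.18 with TPM (adjusted p = 0.0572). Prkag2, the gamma2 subunit, rose in Metformin by 0.39 ± 0.059 (adjusted p = 2.6e-05), from 5.48 to 8.66. Its FPKM and read counts did not move alike in every group: scaled FPKM was 7.13 with both drugs, where the log2 change in read counts from Control was −0.01.

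All 9 tested kinases of the AMPK family that Stk11 activates passed the threshold in FK506, 6 higher and 3 lower, where 80.9% of all genes passed. With TPM 7 passed, all higher, where 71.2% of all called genes were higher. Nuak2 had the largest rise, at 0.858 ± 0.059 scaled FPKM in Control, 1.08 ± 0.042 in Metformin, 17.7 ± 0.96 in FK506 and 8.49 ± 0.47 in Metformin+FK506. Its log2 change was 4.37 ± 0.079 in FK506 (adjusted p = 2.48e-17), and it fell by 1.05 ± 0.063 when metformin was added to FK506 (adjusted p = 4.71e-09). Nuak1 rose with FK506 by 4.19 ± 0.177 (adjusted p = 1.33e-12), from 0.128 to 2.34 scaled FPKM, and fell by 0.51 ± 0.138 with metformin added (adjusted p = 0.00995). Its mean FPKM in Control, 0.118, was under the 0.5 of the filter on low values, which it passed through other groups. Snrk rose in Metformin by 0.79 ± 0.053 (adjusted p = 2.46e-09). The B cell and myeloid marker sums moved up with FK506 in the same libraries, and both sums were lower when metformin was added, the myeloid one through Lyz2. Their part in the Nuak1 and Nuak2 values was not tested.

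Of 9 AMPK substrates tested, 3 rose and 6 fell in FK506, against 41.3% and 39.6% of all genes, while 3 rose and 4 fell with total counts and 5 rose and 2 fell with TPM. In Metformin 4 rose and 3 fell, against 28.6% and 27.4%. Ulk1, the kinase that starts autophagy, rose in Metformin by 0.91 ± 0.045 (adjusted p = 6.02e-11) and in FK506 by 0.78 ± 0.045 (adjusted p = 8.4e-11). It was at 8.38 scaled FPKM in Control, 15.7 in Metformin, 14.3 in FK506 and 15.4 in Metformin+FK506. Tbc1d1, a regulator of glucose transporter traffic, fell in Metformin by 0.73 ± 0.038 (adjusted p = 1.21e-10). Fnip1, a partner of folliculin, rose by 0.50 ± 0.044 when metformin was added to FK506 (adjusted p = 3.36e-07).

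Of 6 other subunits of mTORC1 and mTORC2 tested, 5 rose in FK506, against 41.3% of all genes. With TPM 6 rose, where 71.2% of all called genes were higher. Rictor rose by 0.36 ± 0.051 in FK506 (adjusted p = 5.91e-06) and fell by 0.32 ± 0.051 in Metformin (adjusted p = 5.35e-05), and was at 11.1, 8.86, 14.2 and 13.6 scaled FPKM in Control, Metformin, FK506 and Metformin+FK506. Prr5, an mTORC2 subunit, rose with FK506 by 3.32 ± 0.139 (adjusted p = 1.1e-12), from 0.769 to 7.28, and fell by 0.35 ± 0.116 with metformin added (adjusted p = 0.03, and 0.142 with TPM). Mlst8, shared by both complexes, changed by −0.08 ± 0.067 in FK506 (adjusted p = 0.304), and by 0.36 with TPM (adjusted p = 0.000797). Deptor, an inhibitor of both, was not tested and reached at most 0.471 scaled FPKM.

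In the list of the TSC-Rheb axis and its PI3K-Akt input, 5 of 13 rose and 5 fell in FK506, or 76.9% called against 80.9% of all genes, and with TPM 9 rose and 1 fell. Rheb was at 22.5 scaled FPKM in Control, 29.4 in Metformin, 25.6 in FK506 and 23.9 in Metformin+FK506, with log2 changes of 0.39 ± 0.058 in Metformin (adjusted p = 2.96e-05) and 0.19 ± 0.058 in FK506 (adjusted p = 0.00645). Ddit4 (REDD1), which frees the TSC complex to act, fell by 2.33 ± 0.043 in FK506 (adjusted p = 3.41e-17), from 198 to 39.3 scaled FPKM. In Metformin it fell by 0.58 ± 0.041 (adjusted p = 4.71e-09), to 133. Among Rag GTPases, Ragulator and folliculin, 5 of 11 rose and 3 fell in FK506, or 72.7% called against 80.9% of all genes. With TPM all 11 rose, where 71.2% of all called genes were higher. Flcn rose in Metformin by 0.90 ± 0.038 (adjusted p = 6.62e-12), from 14.5 to 27.0 scaled FPKM, and Rraga fell by 0.59 ± 0.075 (adjusted p = 5.02e-06), from 27.6 to 18.3.

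Among 16 genes of GATOR, KICSTOR and the amino acid sensors, 5 rose and 8 fell in FK506, or 81.2% called against 80.9% of all genes, and with TPM 11 rose and 4 fell. The 3 sestrins, which signal stress or leucine shortage to GATOR, moved apart. Sesn1 was at 8.71 scaled FPKM in Control, 15.2 in Metformin, 46.3 in FK506 and 36.1 in Metformin+FK506, a log2 change of 2.37 ± 0.051 in FK506 (adjusted p = 1.92e-16). Sesn2 fell by 1.54 ± 0.074 in FK506 (adjusted p = 7.14e-12), from 28.1 to 9.62, and Sesn3 fell by 0.51 ± 0.082 (adjusted p = 2.78e-05), from 57.7 to 40.3, a change that was −0.07 with TPM (adjusted p = 0.489). In Metformin, Sesn1 rose by 0.78 ± 0.051 (adjusted p = 1.8e-09), while the changes of Sesn2 (0.01 ± 0.071) and Sesn3 (0.04 ± 0.082) did not pass the threshold.

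All 14 mTORC1 substrates and targets passed the threshold in FK506, 6 higher and 8 lower, where 80.9% of all genes passed, and in Metformin 8 were higher and 2 lower, or 71.4% against 56.0%. With TPM the FK506 split was 8 higher and 4 lower. Eif4ebp1, the translation repressor that mTORC1 inactivates, was at 128, 135 and 132 scaled FPKM in Control, 129, 128 and 128 in Metformin, 12.3, 12.7 and 13.3 in FK506 and 19.5, 19.5 and 16.6 in Metformin+FK506. The groups with and without FK506 stood far apart, and the combination lay above FK506. The log2 change was −3.36 ± 0.060 in FK506 (adjusted p = 2.07e-17), −0.03 ± 0.051 in Metformin (adjusted p = 0.63) and 0.57 ± 0.062 when metformin was added to FK506 (adjusted p = 3.55e-06). Rps6kb1, the S6 kinase, fell by 0.17 ± 0.054 in FK506 (adjusted p = 0.00785), but was 0.05 higher with total counts (adjusted p = 0.418) and 0.15 higher with TPM (adjusted p = 0.277), neither past the threshold. Eef2k, which slows translation elongation, rose by 0.60 ± 0.058 when metformin was added to FK506 (adjusted p = 9.51e-07), from 4.28 to 6.11 scaled FPKM.

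**Figure D5:**
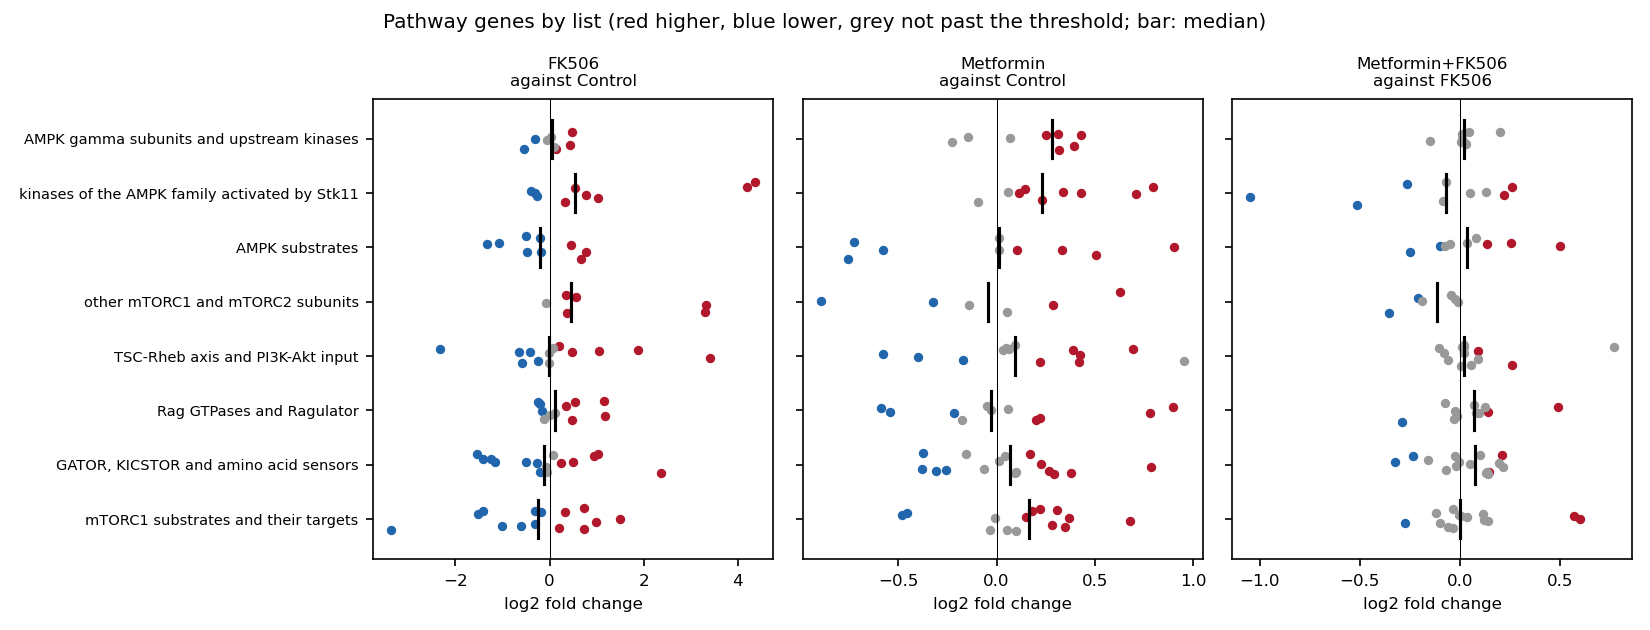
Log2 fold change of each tested gene of the 8 pathway lists in 3 comparisons, coloured by its call, with the median of each list as a bar and a separate axis range in each panel. In FK506 against Control the lists spread to both sides of 0, from −3.36 (Eif4ebp1) to 4.37 (Nuak2).

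Across the 12 libraries, the genes that followed each of 4 members most closely were found by Pearson's r among 12783 genes. This is a description over libraries that share their groups. The values were log2(FPKM + 1) without TMM scaling, whose median over all genes rose by 0.19 in FK506 against Control, so r includes that shift. For Prkaa1 these were Clta (r = 0.987), Dapk3 (0.985) and Tmf1 (0.983), and 530 genes had r above 0.95. For Stk11 they were Slc7a7 (0.994), Slc15a4 (0.990) and Oard1 (0.990), and 1591 genes had r above 0.95. For Mtor they were Vps13d (0.989), Ep400 (0.989) and Peak1 (0.987), with 173 such genes. For Prkab2 the closest were Eif2ak4 (0.942), Dnajc16 (0.919) and AY036118 (0.903), and 0 genes had r above 0.95.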

How the data were processed

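RNA of 12 samples of CD4+ T cells was measured by sequencing. Per the labels the processing notes name bcl2fastq 2.20.0, Trimmomatic, HISAT2 2.1.0, StringTie 2.1.3b and mouse build mm10, and trimming settings, annotation and strandedness are not given in the sources used here. The authors deposited whole-number read counts per gene, FPKM and TPM for 45777 genes in 12 samples, and samples were grouped by their titles. Counts, FPKM and TPM come from the same estimates, and FPKM follows transcript lengths that can differ between libraries, so counts and FPKM of a gene can move apart.

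Read counts were fitted with edgeR 4.0.16 (R 4.3.3), TMM scaling, all 4 groups in one quasi-likelihood model with 8 residual degrees of freedom, for the 15197 genes that reached 0.5 FPKM in 3 or more libraries ( 18141 genes were at 0 throughout). FPKM was divided by the TMM factor to print levels. Alternatives used DESeq2 1.42.0, limma 3.58.1, other scalings, filters and pseudocounts of 1 or 0.1, a replicate block, and leaving out each of the 12 libraries. On simulated counts for FK506 against Control (15197 genes, 200 changed 2-fold), edgeR recovered 176 (88%) with 13 false calls. In the data 80.9% of genes were called, and the largest member change was 0.62 on the log2 scale. The simulated rates therefore do not carry over to the member calls. Ratios and promoters were handled in Python 3.11.15. The members and gene lists were chosen with earlier results of these data known.

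The text names the 10 members; partners fixed by name (Prkag2, Strada, Cab39, Camkk2, Mlst8, Rictor, Rheb, Rps6kb1, Eif4ebp1, Ulk1, Sesn1, Sesn2, Sesn3, Ddit4 and Deptor); in FK506 or Metformin against Control and Metformin+FK506 against FK506 the 3 pathway genes that rose most and the 3 that fell most, among those called and with a mean of 1 FPKM or more in either group; and the 3 genes most correlated with Prkaa1, Prkab2, Stk11 and Mtor. 1 gene that this rule names is not reported here. Other experiments of the study were not analysed here.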

Additional observations from a re-analysis of the deposited data

Results flagged for a closer look

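For 3 genes the effect of metformin with FK506 differed from its effect without FK506 by the interaction term of the edgeR fit. This is 3 of the 9 tested, where 46.5% of all genes were called. The difference was 0.50 on the log2 scale for Rptor (adjusted p = 3.53e-05), 0.42 for Prkab2 (adjusted p = 0.00315) and 0.26 for Prkaa1 (adjusted p = 0.0351). Metformin went with lower Rptor without FK506 (−0.27) and higher Rptor with it (0.24). For Prkab2 the corresponding changes were −0.21 and 0.20, and for Prkaa1 −0.27 and −0.0046. The Prkaa1 interaction call did not hold in 16 of 24 alternatives. Of the single changes, that of Rptor without FK506 missed the threshold in 5 of 25 alternatives. Those of Prkab2 without and with FK506 missed it in 7 and 17 of 25.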

How the results depend on the processing

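Of 872 alternative values for the 35 called member changes, 806 kept direction and call, 65 lost the call and 1 reversed, which was Prkab2 in FK506 (0.20 with TPM). A requirement of a log2 change of at least 1 left 0 members in each comparison except Metformin+FK506 against Metformin (1), and left pathway counts of 24 (FK506), 0 (Metformin) and 22 (both) against Control, 1 (Metformin+FK506 against FK506), 15 (Metformin+FK506 against Metformin) and 4 (interaction) of 86. The same requirement left 36.6%, 10.5%, 37.4%, 4.21%, 32.2% and 11.9% of all genes in these comparisons. Members called in Metformin were 2 with limma on FPKM with 1 or 0.1 added, where 7965 and 8082 of the 15197 genes were called. Members called in Metformin+FK506 against FK506 were 2 with only these groups in the fit, and 2 to 4 with a library left out, with 2 without FK506 replicate 1 or 3. Over all 15197 genes these fits called 3773, and 3672 to 4745 with a library left out. Leaving out a library gave 3 to 5 members called in Metformin, 7 to 9 in Metformin+FK506 against Metformin and 2 to 4 in the interaction. Over all 15197 genes 7753 to 8821, 11427 to 11868 and 6485 to 7093 were called in these comparisons. TPM, TMM-scaled FPKM and the added 0.1 for Prkaa2 over Prkaa1 were chosen after seeing the data, and its read-count ratio was not run because a library is at 0.

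Reversals of changes that were not called were these. Prkab2 with both drugs against Control was 0.18 (total counts), 0.15 and 0.18 (FPKM with 1 and 0.1 added), 0.42 (TPM) and −0.13 to 0.019 with a library left out. Prkag1 in Metformin was 0.029 (upper quartile), 0.018 (total counts), 0.014 and 0.014 (FPKM with 1 and 0.1 added), 0.056 (quantile) and −0.041 to 0.00071 left out. Stk11 in Metformin was −0.0090 (no filter), −0.0046 (compared groups) and −0.051 to 0.043 left out. Tsc2 from FK506 to the combination was −0.0035 (RLE size factors), −0.0034 (DESeq2), −0.013 (no filter) and −0.036 to 0.060 left out, and its interaction was 0.024 (TPM) and −0.086 to 0.010. Prkaa1 and Prkab1 from FK506 to the combination ran from −0.11 to 0.033 and −0.13 to 0.061 left out. The cause was not tested.

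Replicate numbers did not pair the libraries: deviations of same-numbered libraries correlated at −0.146 to 0.0853 over 18 pairs, 0 above 0.1. With the replicate block, counts of members were 8 (FK506), 4 (Metformin) and 8 (both) against Control, 3 (against FK506), 8 (against Metformin) and 2 (interaction), where Prkab2 against FK506 (0.20, adjusted p = 0.0671) and the Prkaa1 interaction (0.26, adjusted p = 0.051) missed the threshold. In the same order 12198, 8312, 12308, 4326, 11749 and 6792 of all 15197 genes were called. Tsc2 over Tsc1 was −0.16 with exact p = 0.0625 over 64 assignments. Depth limits Prkaa2, with 0 to 34 reads.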
